A study of Mus musculus with 8 samples.

Results

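Cholesterol and fatty acid synthesis genes were examined in CD11c-positive splenocytes of lupus-prone and control mice. The 31 genes were chosen by name, as genes of sterol and fatty acid synthesis known to be driven by the sterol regulatory element binding proteins (SREBPs), and all 31 were rows of the deposited table of 13786 protein-coding genes. RNA was sequenced from 4 C57BL/6 mice and 4 B6.SLE123 mice, all female and 7 weeks old, with no treatment given, and the reads were counted per gene. B6.SLE123 mice carry lupus susceptibility intervals of the NZM strain (Sle1, Sle2 and Sle3) on the C57BL/6 background and develop lupus-like disease with age. The controls share that background without the intervals. The cells were primary cells sorted from spleen and labelled as dendritic cells. CD11c, the product of Itgax, is also carried by some macrophages and B cells. The strain was taken from the sample names, because the number in the genotype label rises from mouse to mouse within each strain. Counts summed to between 25761789 and 32931045 per C57BL/6 mouse and between 25563070 and 37367094 per B6.SLE123 mouse, and every member had at least 39 counts in every mouse. Levels are given as CPM, the count per 1000000 counts of the scaled library. Log2 fold changes set B6.SLE123 against C57BL/6, with values below 0 for genes that were lower in the lupus-prone strain. A gene is called where the adjusted p of edgeR's quasi-likelihood test over all 13786 genes was below 0.05.

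Cells build cholesterol from acetyl-CoA through mevalonate, the isoprenoid farnesyl diphosphate, squalene and lanosterol, and build fatty acids by carboxylating acetyl-CoA to malonyl-CoA, which fatty acid synthase joins into chains. SREBPs are membrane-bound transcription factors of the endoplasmic reticulum. When membrane sterol falls, the escort Scap carries them to the Golgi, where proteases release the active part, and when sterol is high, Insig proteins hold Scap back. Srebf2 encodes the form tied mainly to sterol genes, and Srebf1 the forms tied mainly to fatty acid genes. In spleen, red pulp macrophages engulf aged red blood cells and so take up their sterol, and dividing cells make lipid for new membrane.

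Promoters of SREBP genes often hold an SREBP motif beside a CCAAT box, which NF-Y binds. RefSeq promoter windows, running from 250 bases before to 50 bases after each gene's start (GRCm38.p6), were found for 24 of the 31 genes. Some genes had several windows, and a gene was counted where any of its windows held the motif. A CCAAT box on either strand was counted for 20 of the 24 genes (83.3%). It was counted for 42.8% of 10908 genes of the count table and 41.1% of 27025 genes in all. The SREBP motif TCACNCCAC was counted for 1 of the 24 genes, Hmgcs1, against 1.40% of the count-table genes. Allowing 1 mismatch among its fixed letters, a choice made after seeing the data, it was in 11 of the 24 (45.8%), against 29.1% of the count-table genes. The Sp1 motif GGGCGG was counted for 19 genes (79.2%, against 65.6%), and the E-box CANNTG for 16 (66.7%, against 68.4%). All motifs were searched on both strands, and a match describes the letters only. The stretches of 180 bases shown hold no annotated exon and cover the only exact SREBP match (Hmgcs1), 2 genes that were lower in B6.SLE123 mice (Mvd and Ebp) and 2 that were higher (Fasn and Acly). They run 5′ to 3′ on the gene's strand, with CCAAT boxes (ATTGG where the box lies on the opposite strand) and SREBP matches with at most 1 mismatch in capitals.
Hmgcs1, chr13:119690171-119690350, plus strand: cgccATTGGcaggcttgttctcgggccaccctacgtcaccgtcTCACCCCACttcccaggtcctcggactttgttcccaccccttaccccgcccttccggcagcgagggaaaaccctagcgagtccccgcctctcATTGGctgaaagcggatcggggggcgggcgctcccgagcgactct
Mvd, chr8:122443423-122443602, minus strand: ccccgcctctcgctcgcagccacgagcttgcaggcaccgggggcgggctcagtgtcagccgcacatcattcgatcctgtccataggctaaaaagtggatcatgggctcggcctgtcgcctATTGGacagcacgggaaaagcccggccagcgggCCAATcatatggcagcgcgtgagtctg
Ebp, chrX:8193513-8193692, minus strand: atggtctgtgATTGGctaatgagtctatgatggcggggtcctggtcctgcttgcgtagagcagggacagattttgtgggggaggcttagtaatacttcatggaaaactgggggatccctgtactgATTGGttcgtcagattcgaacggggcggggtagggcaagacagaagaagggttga
Fasn, chr11:120824548-120824727, minus strand: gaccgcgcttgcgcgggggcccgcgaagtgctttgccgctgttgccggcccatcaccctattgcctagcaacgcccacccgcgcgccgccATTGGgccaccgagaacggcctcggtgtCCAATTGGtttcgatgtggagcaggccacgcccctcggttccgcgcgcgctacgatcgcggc
Acly, chr11:100528001-100528180, minus strand: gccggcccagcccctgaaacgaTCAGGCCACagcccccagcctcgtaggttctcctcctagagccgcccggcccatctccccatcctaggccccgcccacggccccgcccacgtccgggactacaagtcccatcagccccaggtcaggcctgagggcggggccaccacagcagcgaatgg
In Hmgcs1 the exact SREBP match starts 137 bases before the gene's start, and the stretch holds CCAAT boxes at 176 and 45 bases. Mvd has boxes at 60 and 27 bases and Ebp at 170 and 55 bases. Of the 3 boxes of Fasn, at 90, 62 and 59 bases, the latter pair overlap on opposite strands, and an E-box spans their centre. Acly has an SREBP match at 158 bases that differs at 1 position (C4G, counted from the motif's 5′ end), and its CCAAT box lies after the start, outside the stretch shown.

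The synthesis genes did not move as one block between the strains. The genes of sterol synthesis and sterol sensing were mostly either lower in B6.SLE123 mice or not called. The genes of the first steps of fatty acid building were mostly higher, and no member changed as much as 2-fold. Of the 31 genes, 18 were called (58.1%), against 53.4% of all 13786 genes. By direction, 6 were higher (19.4%, against 26.7% of all genes) and 12 were lower (38.7%, against 26.6%). The share called was thus close to that of all genes. By edgeR, more than 2-fold changes were called for 11.1% of all genes and for 0 members, whose log2 fold changes ran from -0.82 to 0.58. DESeq2 and limma-voom also called 0 members at more than 2-fold. For 18 members, no value of one strain fell within the range of the other (58.1%), against 48.9% of all genes. The median log2 fold change of the members was -0.13, against -0.002 for all genes, and the median absolute value was 0.29 against 0.25. In the mice themselves, the median member stood -0.08, -0.23, -0.16 and -0.14 from its C57BL/6 mean on the log2 scale in B6.SLE123 replicates 1 to 4, and from -0.02 to 0.06 in the C57BL/6 mice.

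**Figure D1:**
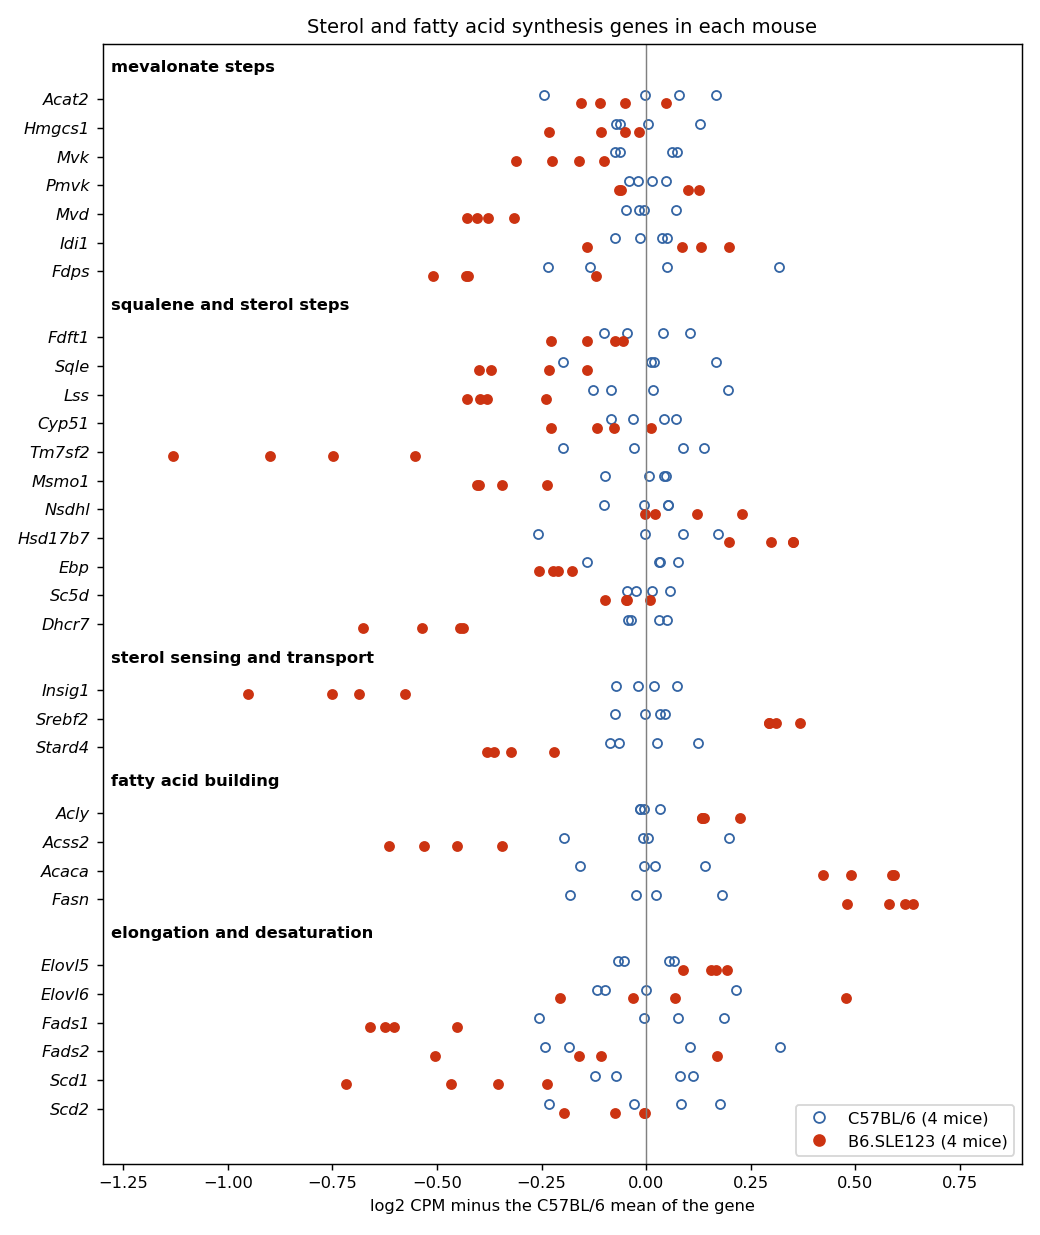
Level of each synthesis gene in each mouse, as log2 CPM minus the gene's C57BL/6 mean (open circles, C57BL/6; filled circles, B6.SLE123; 4 mice each), grouped by step. Tm7sf2, Insig1 and Fads1 lie farthest to the left in B6.SLE123 mice, with log2 fold changes of -0.82, -0.74 and -0.59, and Fasn and Acaca farthest to the right, at 0.58 and 0.52.

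**Figure D2:**
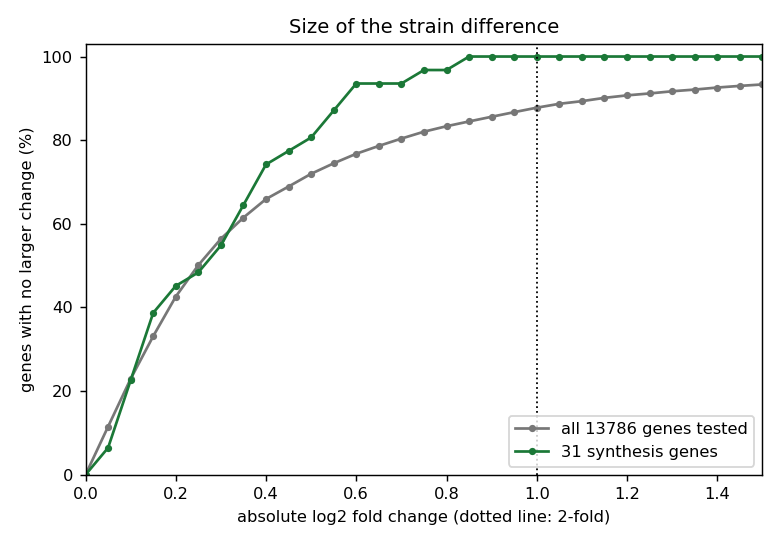
Percentage of genes whose absolute log2 fold change was no larger than the value on the x axis, for the 31 synthesis genes and all 13786 genes. The curves run together up to a change of about 0.3; at 0.5 the synthesis genes reach 80.6% and all genes 72.0%.

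Srebf2 and Insig1, which stand on opposite sides of sterol sensing, changed in opposite directions. With Stard4, they made 1 higher and 2 lower genes of sterol sensing and transport, where 26.7% of all genes were higher and 26.6% lower. Srebf2, which encodes SREBP-2, was at 398, 411, 378 and 408 CPM in C57BL/6 replicates 1 to 4 and at 494, 489, 489 and 515 CPM in B6.SLE123 replicates 1 to 4. All B6.SLE123 mice were above all C57BL/6 mice. The log2 fold change was 0.32 (adjusted p = 8.91e-05, standard error 0.04), and Srebf2 had the highest level per length of the 31 genes in both strains. Insig1, which retains SREBPs in the endoplasmic reticulum and is itself an SREBP target, was at 50.7, 54.2, 48.9 and 52.1 CPM in C57BL/6 mice and 30.6, 26.6, 31.96 and 34.5 CPM in B6.SLE123 mice. The lowest C57BL/6 mouse was well above the highest B6.SLE123 mouse. Its log2 fold change was -0.74 (adjusted p = 1.1e-05, standard error 0.07). Stard4, which carries sterol between membranes, was at 32.7, 30.6, 28.2 and 28.7 CPM against 25.7, 23.97, 23.3 and 23.03 CPM. It was lower in B6.SLE123 mice, without overlap (log2 fold change -0.32, adjusted p = 0.00127).

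Of the 5 other genes of the SREBP pathway listed, Srebf1 was lower, Mbtps1 was higher and 3 were not called. That is 40.0% called, against 53.4% of all genes. Srebf1 fell from 113 ± 3.15 to 89.6 ± 3.59 CPM (mean ± SD, n = 4), without overlap between the strains (log2 fold change -0.33, adjusted p = 7.62e-05). It thus differed in the opposite direction to Srebf2 by a change of like size. Mbtps1, the first of the Golgi proteases to cut SREBPs, rose by 0.14 on the log2 scale (adjusted p = 0.00691). Scap, Insig2 and Mbtps2, the second protease, were not called, at log2 fold changes of -0.06, -0.07 and -0.07. Reads mapped to Srebf1 cannot tell its transcript forms apart in this table, which gives 1 row per gene.

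**Figure D3:**
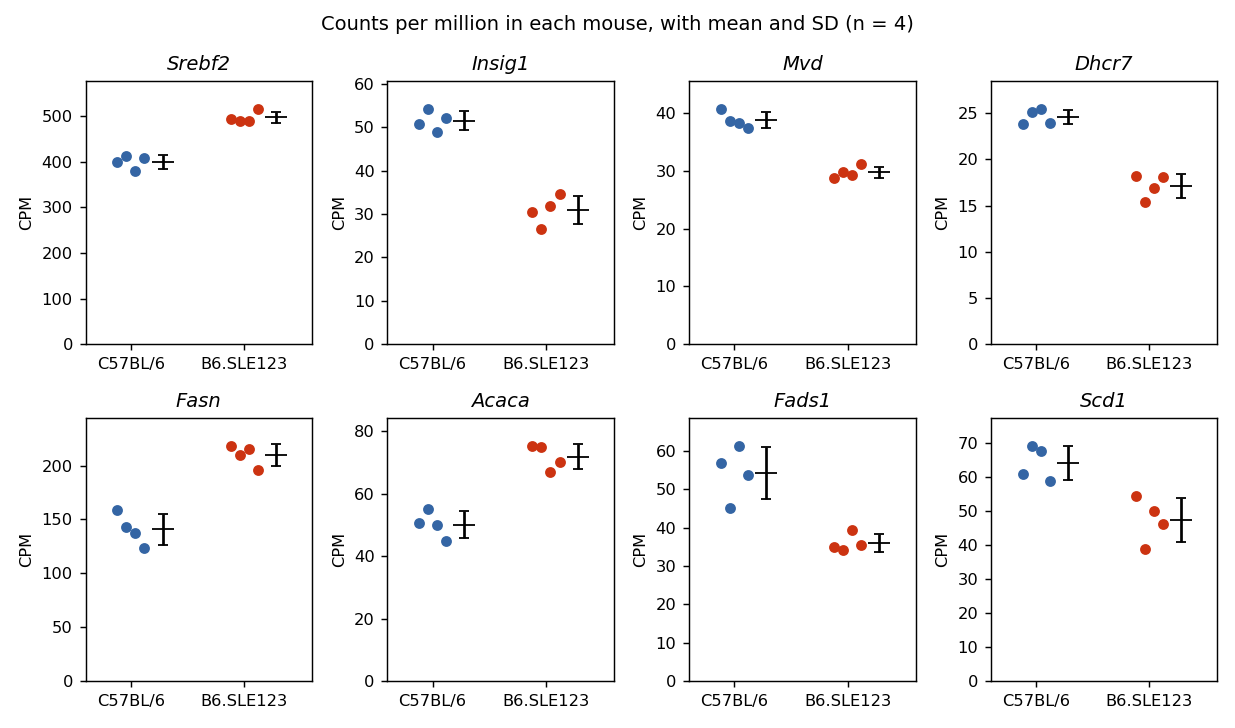
CPM of 8 synthesis genes in each mouse, on axes that start at 0, with the mean and SD of 4 mice beside each strain. Srebf2, Fasn and Acaca are higher and Insig1, Mvd, Dhcr7, Fads1 and Scd1 lower in every B6.SLE123 mouse than in every C57BL/6 mouse. The genes drawn are all among the 18 members without overlap between the strains (58.1% of members, against 48.9% of all genes). Members with overlapping values are not drawn here.

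Of the 7 genes that turn acetyl-CoA into farnesyl diphosphate, only Mvd was called, and 6 were not (14.3% called, against 53.4% of all genes). Mvd, the decarboxylase that makes isopentenyl diphosphate, was at 40.6, 38.5, 38.2 and 37.4 CPM in C57BL/6 mice and 28.8, 29.8, 29.2 and 31.1 CPM in B6.SLE123 mice. Its values lay close together within each strain and did not overlap between them. The log2 fold change was -0.38 (adjusted p = 5.95e-05, standard error 0.05), and its promoter stretch with the pair of CCAAT boxes is given above. Hmgcs1, the synthase at the start of the mevalonate steps and the gene with the exact SREBP match, was at 60.05, 52.6, 52.2 and 55.01 CPM against 54.2, 46.7, 52.97 and 50.9 CPM. These ranges overlapped, and the log2 fold change of -0.10 (standard error 0.06) was not called (adjusted p = 0.178). Mvk, mevalonate kinase, was at 11.01, 10.02, 10.1 and 11.1 CPM against 9.43, 9.84, 9.03 and 8.503 CPM. Its values did not overlap, but its adjusted p was 0.0527 (log2 fold change -0.20), and 4 alternative settings brought it below 0.05, among them leaving out B6.SLE123 replicate 2 (0.0384; range over the alternatives 0.038 to 0.124). Acat2, which joins acetyl units, Pmvk, the second kinase, and Idi1, the isomerase, were at log2 fold changes of -0.07, 0.03 and 0.07, with overlapping values. Fdps, which makes farnesyl diphosphate, was at 2.09 ± 0.361 against 1.604 ± 0.2003 CPM (mean ± SD, n = 4), and its log2 fold change of -0.38 carried a standard error of 0.17 (adjusted p = 0.0897). Fdps was thus as far from 0 as Mvd, at a standard error more than 3 times larger.

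The 11 genes from squalene to cholesterol included 6 that were lower, 1 that was higher and 4 that were not called, with a median log2 fold change of -0.22. The 7 called are 63.6% of the 11, against 53.4% of all genes, of which 26.6% were lower and 26.7% higher. Dhcr7, which reduces 7-dehydrocholesterol to cholesterol, was at 23.9, 25.1, 25.4 and 23.96 CPM in C57BL/6 mice and 18.2, 15.4, 16.96 and 18.1 CPM in B6.SLE123 mice. The strains were clearly apart, with every B6.SLE123 mouse below every C57BL/6 mouse. The log2 fold change was -0.52 (adjusted p = 5.82e-05, standard error 0.06). Tm7sf2, a sterol C14 reductase, was at 9.69, 8.64, 9.36 and 7.68 CPM against 4.02, 5.24, 6.01 and 4.72 CPM. This was the member with the largest absolute change, also without overlap (log2 fold change -0.82, adjusted p = 0.000325, standard error 0.13). Msmo1, the C4-methylsterol oxidase, was at 30.7, 29.98, 27.8 and 30.8 CPM against 23.5, 22.6, 22.5 and 25.3 CPM. Lss, which closes the sterol rings to form lanosterol, was at 23.04, 19.00, 18.4 and 20.4 CPM against 14.97, 15.3, 17.04 and 15.5 CPM. Both were lower without overlap, at log2 fold changes of -0.35 and -0.36 (adjusted p = 0.000469 and 0.00283).

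Ebp, the sterol isomerase whose promoter stretch is shown above, was at 32.4, 28.7, 32.3 and 33.3 CPM in C57BL/6 mice and 27.1, 26.5, 27.96 and 27.3 CPM in B6.SLE123 mice. The fall was small and without overlap (log2 fold change -0.22, adjusted p = 0.00677). Sqle, the squalene epoxidase, was at 25.05, 22.5, 19.4 and 22.6 CPM against 20.2, 16.9, 19.00 and 17.2 CPM. C57BL/6 replicate 3 lay within the B6.SLE123 range. Its log2 fold change was -0.29 (adjusted p = 0.0163), and without C57BL/6 replicate 1 the adjusted p was 0.052 (range over the alternatives 0.00548 to 0.052). Hsd17b7, a sterol C3-ketone reductase, was the only one of the 18 sterol enzymes among the members that was called higher, at 8.17, 7.72, 6.07 and 7.25 CPM against 8.92, 8.33, 9.26 and 9.25 CPM. Its values did not overlap, but the log2 fold change of 0.29 (adjusted p = 0.0289) was no longer called when B6.SLE123 replicate 1, 3 or 4 or C57BL/6 replicate 3 or 4 was left out (adjusted p from 0.0514 to 0.0764; range over the alternatives 0.0203 to 0.0764). Hsd17b7 lies on chromosome 1 (mm10, 169949535 to 169969241, minus strand) and Dhcr7 on chromosome 7 (143823145 to 143848410, plus strand). Of all genes tested, 28.2% of 831 on chromosome 1 were higher and 32.2% of 1092 on chromosome 7 were lower. These chromosomes also carry Sle1 and Sle3, whose limits are not given in the sources used here. Whether either gene lies within an interval was therefore not tested. Fdft1, Cyp51, Nsdhl and Sc5d, which make squalene, demethylate lanosterol, remove C4 carbons and desaturate the ring, were at log2 fold changes of -0.13, -0.10, 0.09 and -0.05. Their values overlapped between the strains, and none was called. The summed CPM of all 18 sterol enzymes was between 395 and 432 in C57BL/6 mice and between 349.7 and 368 in B6.SLE123 mice, so the sums did not overlap.

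Fatty acid building showed the largest rises: of its 4 genes, 3 were higher and 1 was lower, with a median log2 fold change of 0.34, where 53.4% of all genes were called. Fasn, fatty acid synthase, was at 159, 143, 138 and 124 CPM in C57BL/6 mice and 218, 209.9, 215 and 196 CPM in B6.SLE123 mice. Every B6.SLE123 mouse was above every C57BL/6 mouse. The log2 fold change was 0.58 (adjusted p = 5.01e-05, standard error 0.07), which is 1.49-fold. Acaca, the acetyl-CoA carboxylase that makes malonyl-CoA, was at 50.7, 55.2, 49.8 and 44.8 CPM against 75.3, 75.1, 67.00 and 70.2 CPM. It too rose without overlap (log2 fold change 0.52, adjusted p = 6.11e-05, standard error 0.06), though 30.4% of the 50-base stretches of its exons are shared with other annotated transcripts, foremost the processed pseudogene Gm5182. Acly, which makes acetyl-CoA from citrate, was at 210.3, 209, 216 and 209 CPM against 246, 231, 231 and 232 CPM. Its rise was small beside those of Fasn and Acaca, and still without overlap (log2 fold change 0.16, adjusted p = 0.00498). Acss2, which makes acetyl-CoA from acetate, went the other way, at 18.01, 17.9, 20.6 and 15.7 CPM against 13.1, 14.1, 12.4 and 11.7 CPM. No B6.SLE123 mouse reached the lowest C57BL/6 mouse, and the log2 fold change was -0.49 (adjusted p = 0.000995, standard error 0.09).

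The genes that lengthen and desaturate fatty acids were split. Fads1, the delta-5 desaturase of polyunsaturated fatty acids, was at 56.8, 45.1, 61.4 and 53.7 CPM in C57BL/6 mice and 34.99, 34.1, 39.4 and 35.5 CPM in B6.SLE123 mice. It was lower without overlap (log2 fold change -0.59, adjusted p = 0.000183, standard error 0.09). Fads2, the delta-6 desaturase, whose gene ends 81.1 kb from Fads1 on chromosome 19, was at 4.96, 3.49, 3.35 and 4.27 CPM against 4.46, 3.68, 3.55 and 2.79 CPM. At this low level its values overlapped and its log2 fold change of -0.14 had a standard error of 0.17 (adjusted p = 0.509). Scd1, a stearoyl-CoA desaturase that makes monounsaturated fatty acids, was at 60.9, 69.2, 67.7 and 58.8 CPM against 54.3, 38.9, 50.1 and 46.3 CPM. It was lower without overlap (log2 fold change -0.44, adjusted p = 0.00246). Scd2, its paralog 87.6 kb away, was at 135, 127, 117 and 102 CPM against 114, 105, 119.6 and 119.5 CPM. Scd2 values overlapped widely (log2 fold change -0.08, adjusted p = 0.453, standard error 0.08), and whether the changes of Scd1 and Scd2 differ was not tested. Scd1 and Scd2 share 4.56% and 3.97% of their 50-base stretches with other members of the family and other transcripts.

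Elovl5, which lengthens polyunsaturated chains, was at 131, 132, 142 and 143 CPM in C57BL/6 mice and 154, 146, 153 and 157 CPM in B6.SLE123 mice. The strains did not overlap, but the change was small (log2 fold change 0.15, adjusted p = 0.0167), and leaving out C57BL/6 replicate 1 or B6.SLE123 replicate 4 ended the call (adjusted p = 0.0542 and 0.0614; range over the alternatives 0.0101 to 0.0614). Elovl6, which lengthens saturated chains, was at 7.49, 6.03, 5.95 and 6.45 CPM against 8.99, 6.32, 5.59 and 6.77 CPM. B6.SLE123 replicate 1 stood above all other mice, the values overlapped, and the log2 fold change of 0.09 (adjusted p = 0.615, standard error 0.15) was -0.06 without that mouse. The summed CPM of the 10 fatty acid enzymes was between 762 and 834 in C57BL/6 mice and between 864 and 923 in B6.SLE123 mice. These sums did not overlap, while 4 of the 10 genes were higher, 3 lower and 3 not called. Of all genes, 53.4% were called, 26.7% as higher and 26.6% as lower. Fasn alone had a mean of 140.8 CPM in C57BL/6 mice and 209.8 CPM in B6.SLE123 mice. The median sums of the 10 genes were 814.8 and 887.1 CPM. The separation of the sums thus rests largely on Fasn and does not describe the 10 genes as a group.

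Per kilobase of exon, Srebf2 stood highest of the members, at 55.5 ± 2.05 CPM per kb in C57BL/6 mice and 69.1 ± 1.72 in B6.SLE123 mice (mean ± SD, n = 4). Acly and Elovl5 followed, at 39.96 ± 0.643 and 38.9 ± 1.896 CPM per kb in C57BL/6 mice. Their ranges over the 8 mice overlapped each other and lay below that of Srebf2 and above that of Scd2, at 22.1 ± 2.62 CPM per kb. At the other end, Fdps was at 0.496 ± 0.0859 CPM per kb and Elovl6 at 1.01 ± 0.1105. In the order of the 31 levels, the ranges over the 8 mice overlapped for 25 of the 30 neighbouring pairs, so only 5 neighbours were separate. The levels use the exons of GENCODE M21, all isoforms joined, and so understate genes with long rare exons. Several rows could also hold reads of other genes: 39.1% of the 50-base stretches of Acat2 are shared with other transcripts, foremost those of Acat3, 26.5% of Fdft1 (foremost Ctsb, which overlaps it on the opposite strand), 26.2% of Fdps (Gm43738), 25.3% of Idi1 (the pseudogene Gm13502), 11.6% of Hmgcs1 (the antisense Gm48342) and 9.87% of Tm7sf2 (Vps51). For Acss2, 6.13% of the stretches are shared (foremost Gss), and 9.12% of its exon bases overlap genes on the opposite strand. Whether counting used the strand is not given in the sources used here, so these rows are uncertain.

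**Figure D4:**
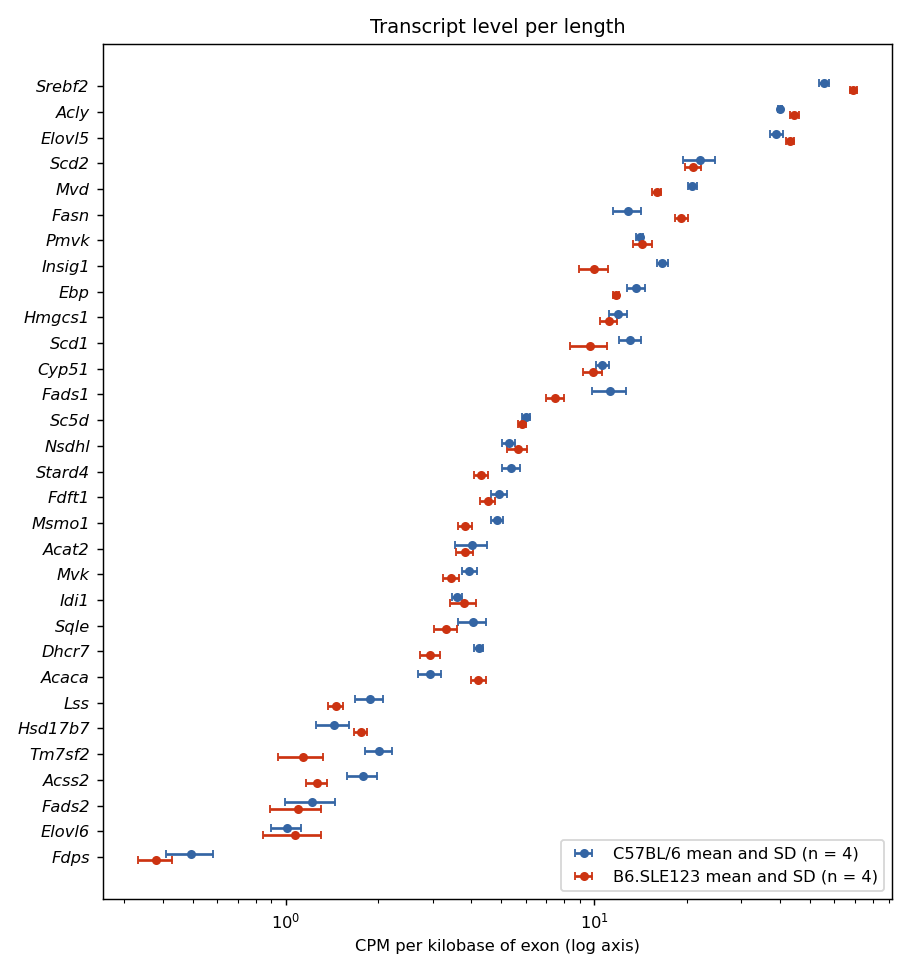
Mean and SD of each synthesis gene in CPM per kilobase of exon, on a log axis, for 4 C57BL/6 and 4 B6.SLE123 mice. Levels run from 0.496 (Fdps) to 55.5 (Srebf2) CPM per kb in C57BL/6 mice, and most neighbours in the order overlap.

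Export and storage of sterol run opposite to synthesis, and export answers to the sterol-sensing LXR receptors. A list of these receptors with export, storage and other related genes was mostly lower in B6.SLE123 mice. Of the 7 genes listed, 6 were lower, against 26.6% of all genes, with a median log2 fold change of -0.49. Nr1h2, which encodes LXR beta and is named here after its value was seen, was the gene not called (log2 fold change -0.04, adjusted p = 0.486). Soat1, the storage gene of the list and also named after its value was seen, was only slightly lower (log2 fold change -0.17, adjusted p = 0.016). Its call was lost without C57BL/6 replicate 1 (adjusted p = 0.0503). Nr1h3, which encodes LXR alpha, was at 163, 150.1, 198 and 175 CPM in C57BL/6 mice and 30.6, 22.4, 43.8 and 32.4 CPM in B6.SLE123 mice. Abca1, which exports cholesterol, was at 125, 133, 147 and 97.6 CPM against 37.02, 28.6, 44.4 and 48.9 CPM. Both were far lower without overlap, at log2 fold changes of -2.41 and -1.67 (adjusted p = 1.11e-06 and 9.42e-06), beyond any change among the synthesis genes. Of the 7 partners of the elongation cycle in the table (of 9 listed), 4 were lower and 1 was higher (71.4% called, against 53.4% of all genes). Among them Hacd1, a dehydratase that was near 0.69 CPM in C57BL/6 mice and 0.291 CPM in B6.SLE123 mice, had a log2 fold change of -1.22 (adjusted p = 0.0156), with overlapping values.

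Markers of the cell types in the preparation moved between the strains beside the synthesis genes. In bulk RNA, fewer cells of a type and less RNA per cell cannot be told apart. The counts of markers below stand against 26.7% of all genes higher and 26.6% lower. The dendritic cell list was present at high level, with summed CPM of 22329.6 to 26114 in C57BL/6 mice and 27564 to 29001 in B6.SLE123 mice, and all 6 of its genes were higher (median log2 fold change 0.27; Cd74 0.25, H2-Ab1 0.28). All 12 red pulp macrophage genes were lower and more than 2-fold so (median -2.38; Vcam1 -2.45, Slc40a1 -2.68). Their summed CPM was 11505 to 14856 in C57BL/6 mice and 1743 to 3351 in B6.SLE123 mice, and none was at 0 in any mouse. All 13 proliferation genes were higher (median 0.97; Mki67 1.28, Top2a 1.10), with summed CPM of 566 to 629.96 against 1058 to 1424. Of the 9 markers of type 1 conventional dendritic cells, 7 were higher, 1 was lower and 1 was not called, also below 0 at -0.18 (Wdfy4 0.85, Irf8 0.48). Their summed CPM was 3497 to 3999 against 5387 to 7109.6. Wdfy4 alone had a mean of 1851 CPM in C57BL/6 mice and 3344 CPM in B6.SLE123 mice, and the values of Irf8 overlapped between the strains. Of 6 markers of type 2 cells, 2 were lower and 4 not called (Sirpa -0.91, Cd209a -0.66), with summed CPM of 1913 to 2115 against 1059 to 1303. Sirpa alone made up most of that sum, at a mean of 1784 CPM in C57BL/6 mice and 950.5 CPM in B6.SLE123 mice. Of 8 B cell markers, 5 were lower and 1 was higher, with a median of -0.54. The most abundant of them did not follow the median (Cd22 0.34, Ms4a1 -0.09), and the summed CPM overlapped, at 719.8 to 813 against 641 to 754. Further, 7 of 8 erythroid markers were lower (Hbb-bs -3.03, Hba-a1 -2.24). The part of these shifts in the changes of the synthesis genes was not tested.

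**Figure D5:**
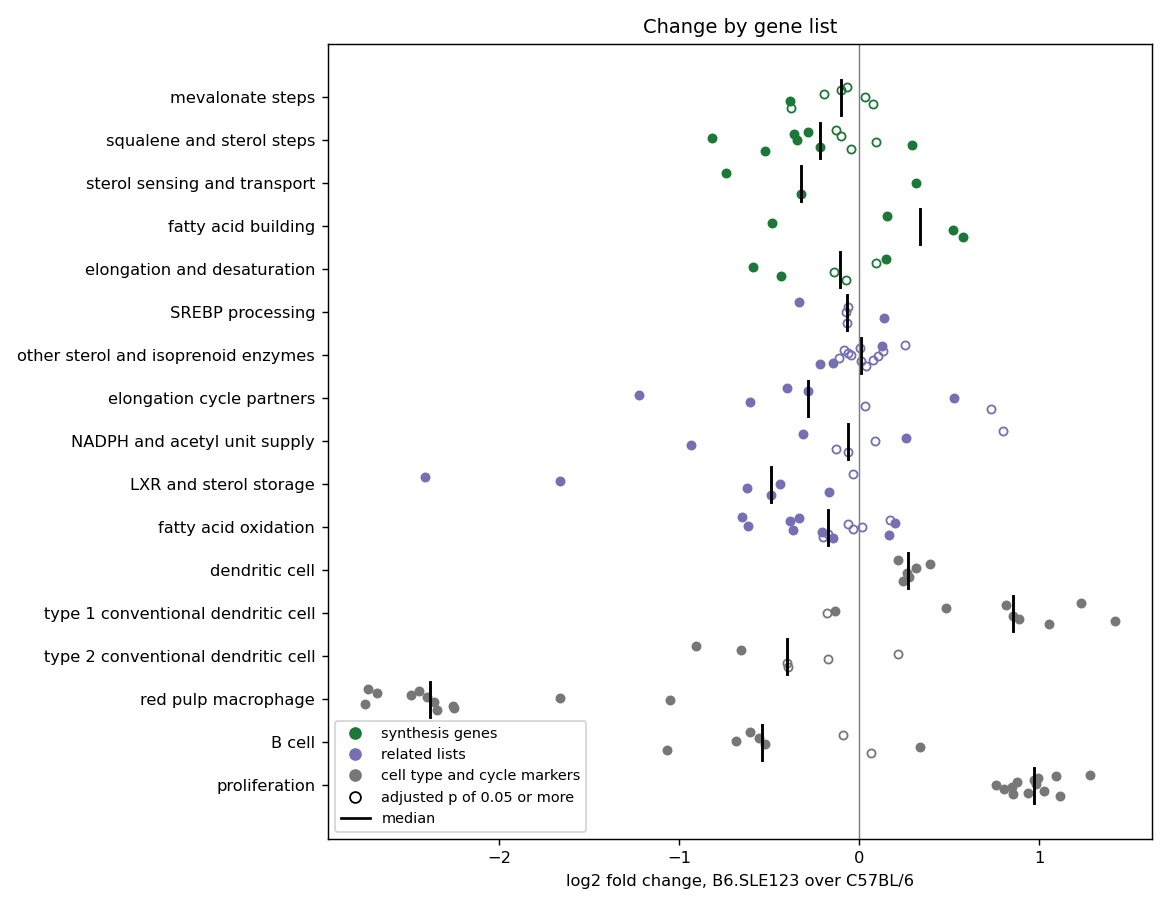
Log2 fold change (B6.SLE123 over C57BL/6) of each gene by list, with the median as a black bar and filled points where the adjusted p was below 0.05. The synthesis genes lie between -0.82 and 0.58, while the red pulp macrophage markers have a median of -2.38 and the proliferation markers of 0.97.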

How the data were processed

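RNA-seq of 8 libraries was analysed, 4 per strain. Per the labels, 0.4 ug of total RNA went into stranded mRNA libraries. The authors used cutadapt for trimming, STAR for alignment to mm10 and featureCounts for counting; versions, annotation release and strand setting are not given in the sources used here. The deposited count columns are raw counts of protein-coding genes, and the larger strain median of every listed gene is at least 5 counts, so sparser genes were not tested. The table's other columns hold the authors' DESeq2 comparison (mean signal, fold changes, p-values) and were not used.

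Counts of all 13786 genes were scaled by TMM (factors 0.994 to 1.01) and compared by the quasi-likelihood F test of edgeR 4.0.16 in R 4.3.3 (no filter, Benjamini-Hochberg adjustment over all genes). The procedure was also run on simulated counts in which few genes changed. That run cannot show how it performs where 53.4% of genes are called. The p-values measure the spread between mice, 4 per strain. Pairs within a strain differed beyond sampling noise (chi-square per degree of freedom 4.96 to 18.9), so each mouse was 1 replicate. Counts per kilobase and shared 50-base stretches use GENCODE M21, whose coordinates match the table for 13663 genes and all 31 members. Promoters are RefSeq's. Alternatives were relative log expression factors, totals alone, at least 10 counts in every mouse, filterByExpr, a replicate block, DESeq2 1.42.0, limma-voom (limma 3.58.1), a stricter adjusted p of 0.01 and each mouse left out.

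The members and all lists were chosen with earlier results of these data known. Every member is named. Of related lists, SREBP processing is named whole, and in the others called genes with an absolute log2 fold change over 1, at most 3 a list. Nr1h2, Soat1, Cpt1a and Idh1 fall outside this rule and were named after their values were seen. Of the marker lists described, the 2 genes with the highest mean CPM are named. The lists of plasmacytoid dendritic cells, monocytes, neutrophils, plasma cells, T cells and NK cells are given by counts. Human samples, single-cell data and RT-PCR were not analysed here.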

Additional observations from a re-analysis of the deposited data

Results flagged for a closer look

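Acly in B6.SLE123 replicate 1, at 246 CPM, stood apart from the other B6.SLE123 mice, of which the nearest was at 232 CPM (median of the 4 mice 232 CPM). The groups tested were the 31 members and the summed marker lists, in each strain. It was the only one of 88 groups of 4 mice in which the gap to the nearest mouse passed Dixon's critical value. Chance alone would give about 4.4.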

How the results depend on the processing

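Over 15 alternative settings, 451 of 465 member values kept their direction and side of the threshold, and 15 of the 18 called members kept both in every setting. The count of called members was 16 to 19 when each mouse was left out and 15 at an adjusted p below 0.01. Shares of all genes called are given here for the main fit only. Counts at the other settings therefore describe the members alone. The exceptions were Sqle (1 setting), Elovl5 (2) and Hsd17b7 (5), which lost their calls, Mvk (4), which gained one, and Pmvk and Elovl6, whose values changed sign when a mouse was left out (-0.014 to 0.057 and -0.062 to 0.18 over the mice left out). Among related genes near 0, Ggps1 was at -0.0056 with at least 10 counts in every mouse and -0.0039 with filterByExpr (mice left out -0.019 to 0.036), Icmt at -0.00065 with at least 10 counts in every mouse (mice left out -0.012 to 0.023), and Hadha at -0.013 to 0.033 with mice left out; the cause was not tested. With the replicate block, 18 members were called and their median log2 fold change was -0.12. Whether the replicate numbers pair the mice is not settled by 4 correlations. Over 11297 genes, deviations of mice with the same number correlated at 0.0586, 0.225, 0.0692 and 0.14, and replicates 2 and 4 correlated best with their own number. With 4 mice per strain, differences as small as those of the uncalled members, whose standard errors were 0.048 to 0.17 on the log2 scale, were not detectable for every gene.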

Other observations

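Fatty acid oxidation, which undoes what synthesis builds, had 7 genes lower, 2 higher and 6 not called of 15, with a median log2 fold change of -0.17. The share called, 60.0%, was near the 53.4% of all genes. Cpt1a, which admits long-chain fatty acids to mitochondria and was chosen here after its value was seen, was at 116 ± 18.5 CPM in C57BL/6 mice and 74.0 ± 5.68 CPM in B6.SLE123 mice (mean ± SD, n = 4), a log2 fold change of -0.65 (adjusted p = 0.000304 by edgeR). Of 7 genes in the table (of 8 listed) that supply NADPH and acetyl units, 2 were lower and 1 was higher (42.9% called, against 53.4% of all genes). Idh1, a cytosolic source of NADPH also chosen after its value was seen, was at 97.3 ± 6.78 CPM against 50.9 ± 6.8 CPM, without overlap (log2 fold change -0.94, adjusted p = 7.19e-06 by edgeR). Of 14 further sterol and isoprenoid enzymes, such as the prenyl transferases, 2 were lower, 1 was higher and 11 were not called, with a median of 0.01. That is 21.4% called, against 53.4% of all genes.

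The 31 synthesis genes lie on 16 chromosomes. Acaca, Acly and Fasn, the 3 fatty acid building genes that were higher, all lie on chromosome 11, where 25.04% of 1166 genes were higher. Of the 5 members on chromosome 19, Tm7sf2, Fads1 and Scd1 were lower and Fads2 and Scd2 were not called, where 29.3% of 492 genes were lower.

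Of the remaining marker lists, plasmacytoid dendritic cells had 1 gene higher and 3 lower of 7, monocytes 2 lower of 6, neutrophils 3 higher and 1 lower of 6 in the table, plasma cells 2 higher and 2 lower of 6, T cells 1 higher and 1 lower of 6, and NK cells 1 lower of 5. Among all genes, 26.7% were higher and 26.6% lower.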
